A study of Mus musculus with 6 samples.

Results

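MHC class I antigen presentation was examined through 10 genes, *B2m*, *H2-K1*, *H2-D1*, *Tap1*, *Tap2*, *Tapbp*, *Psmb8*, *Psmb9*, *Psmb10* and *Nlrc5*, chosen by symbol for their known roles in the pathway from the 24982 genes listed in each library. The choice was made with earlier results of these data known. RNA-seq compared the KSFM-Ca2+ cells, keratinocytes from newborn C57BL/6 skin derived and kept in serum-free medium low in calcium, with the DKSFM cells, 3 libraries each. The DKSFM cells descended from the few KSFM-Ca2+ cells that survived the change to a defined medium with more calcium, and neither group received any treatment. Medium, calcium and the selection of survivors changed together, so their parts cannot be told apart. The passage number of the sequenced cells is not stated and may also differ between the groups. What a replicate was, and whether all came from the same line, is not stated. The p-values thus measure only the spread between these libraries, which may be technical.

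Class I molecules display peptides from inside the cell to cytotoxic T cells and natural killer cells, and almost every nucleated cell, keratinocytes included, carries them. Proteasomes cut proteins into peptides, the TAP transporter carries the peptides into the endoplasmic reticulum, tapasin and chaperones help load them, and a heavy chain bound to beta-2-microglobulin takes them to the surface. Interferon is known to raise most of these genes, and in keratinocytes a low resting level is associated with immune privilege of the hair follicle.

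The measured value was the mean read coverage per base of each gene, written to 1 decimal, so levels of genes of different length can be set side by side. Over all genes the KSFM-Ca2+ libraries held a summed coverage of 1601676 (replicate 1), 1238411 (replicate 2) and 1057750 (replicate 3), and the DKSFM libraries of 1174348, 1239438 and 1170675 in the same order. Values below were scaled for these totals and called normalized coverage. The median absolute log2 difference over 8926 genes was 0.049 to 0.069 between libraries of a group and 0.38 to 0.40 between groups. A gene was tested when at least 3 libraries reached a normalized coverage of 0.5, which 12409 genes did. Of the 10 class I genes, 8 were tested, and each of the 8 was above that minimum in all 6 libraries. The remaining genes, *Psmb8* and *Nlrc5*, were listed at 0.5 or less in every library.

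Of the 8 tested genes, 7 were lower and 1 was higher in DKSFM cells at an adjusted p under 0.01 (limma, Benjamini-Hochberg over all tested genes). The background was high, since 37.1% of all tested genes were lower and 35.5% were higher by the same rule. With a fold change of at least 2 as a second condition, 5 of the 8 were lower and 0 were higher, against 10.5% lower and 13.2% higher among all tested genes. The groups of libraries did not overlap for any of the 8, which also held for 83.3% of all tested genes. Taken as DKSFM over KSFM-Ca2+, the 8 genes had a median log2 change of -1.31, against -0.001 for every tested gene. *B2m* is among the genes that the study itself listed from these libraries, so its direction is not independent evidence. The class I genes were chosen with earlier results of these data known, so the shares beside the background are a description and not a test.

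**Figure D1:**
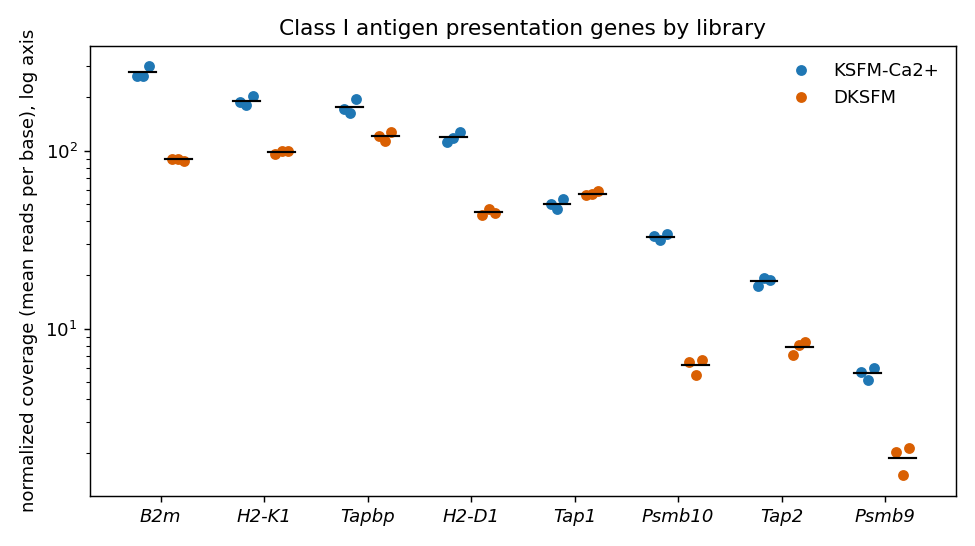
Normalized coverage (mean reads per base, log axis) of the 8 tested class I genes in each library, with points for libraries and bars for group means of 3. B2m led in KSFM-Ca2+ cells at a mean of 275, Tapbp led in DKSFM cells at 121, and Tap1 was the only gene of the 8 with a higher DKSFM mean.

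*B2m* encodes beta-2-microglobulin, the invariant light chain of every class I molecule. Its normalized coverage was 263, 264 and 297 in the KSFM-Ca2+ libraries and 89.8, 90.0 and 87.9 in the DKSFM libraries. The DKSFM libraries lay within a narrow band, well under every KSFM-Ca2+ library, with means of 275 ± 19.6 and 89.2 ± 1.18 (SD, n = 3 each). The fold was 3.07 lower in DKSFM cells, a log2 change of -1.62 ± 0.05 (SE; limma adjusted p = 2.90e-08).

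*H2-K1* and *H2-D1* encode the classical heavy chains, which hold the peptide. *H2-K1* had a normalized coverage of 188, 179 and 202 in the KSFM-Ca2+ libraries and of 95.7, 100 and 99.1 in the DKSFM libraries. It was 1.93-fold lower in DKSFM cells, just short of the 2-fold rule (log2 change -0.95 ± 0.05 SE, limma adjusted p = 3.78e-07). *H2-D1* had a normalized coverage of 112, 118 and 128 in KSFM-Ca2+ and of 43.2, 47.1 and 44.4 in DKSFM libraries. It was 2.65-fold lower in DKSFM cells (log2 change -1.41 ± 0.06 SE, limma adjusted p = 1.18e-07). The heavy chains did not fall in proportion, and the ratio of *H2-K1* to *H2-D1* coverage was 1.595 ± 0.08 in KSFM-Ca2+ and 2.19 ± 0.06 in DKSFM cells (SD, n = 3 each, no test). The ratio of *B2m* to *H2-K1* went from 1.45 ± 0.04 to 0.909 ± 0.03, so that *H2-K1* coverage exceeded that of its light chain in each DKSFM library and in none of the KSFM-Ca2+ libraries. Heavy chain genes resemble each other. Of the read-length windows (85 bases) in annotated *H2-D1* coding transcripts 5.28% also occurred in another gene, mostly *H2-Q1*, against 0.319% for *H2-K1* and 0 for *B2m*. The files also list *H2-L*, which has no entry in that annotation and followed *H2-D1* in each library at 1.05 to 1.10 times its coverage, so the windows do not count what *H2-D1* shares with it, and the level of *H2-D1* and its ratio to *H2-K1* are uncertain.

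The sequences just before the start sites of the light chain and heavy chain genes, which were all lower in DKSFM cells, are shown to describe what they hold, from RefSeq promoter windows (GRCm38.p6). Such windows were found for 8 of the 10 genes, and *Tap2* and *Nlrc5* had no entry. The stretches below are upstream of the start sites, read 5′ to 3′ in the direction of the gene. *B2m* is at chr2:122147506-122147685 on the plus strand and *H2-K1* at chr17:34000348-34000527 on the minus strand. Capitals mark the letters GAAANNGAAA and GAANNGAAA, spacings known from interferon regulatory factor sites, the kappaB consensus, TGACG and CCAAT, each on either strand.
B2m: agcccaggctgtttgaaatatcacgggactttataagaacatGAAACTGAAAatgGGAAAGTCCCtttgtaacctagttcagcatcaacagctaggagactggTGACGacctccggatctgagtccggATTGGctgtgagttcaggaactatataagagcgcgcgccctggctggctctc
H2-K1: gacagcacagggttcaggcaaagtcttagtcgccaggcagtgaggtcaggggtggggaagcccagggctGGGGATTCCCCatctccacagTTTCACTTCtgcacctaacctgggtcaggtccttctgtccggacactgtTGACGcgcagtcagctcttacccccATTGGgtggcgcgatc

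Before *B2m* the interferon factor letters began 139 bases from the start site and the kappaB match 126 bases, while before *H2-K1* the kappaB match came first, at 111 bases, and the interferon factor letters, on the opposite strand, at 90 bases. In both, TGACG and then CCAAT on the opposite strand lay nearer to the start site. From another RefSeq start site of *H2-K1*, the kappaB match began at 125 bases and the interferon factor letters at 104 bases. That window also held CCAAT matches at 30 and 6 bases. *H2-D1* carried a near copy of the *H2-K1* stretch. At chr17:35262923-35262952 on the plus strand, 29 of 30 bases were identical to *H2-K1* at chr17:34000429-34000458 on the minus strand.
H2-K1: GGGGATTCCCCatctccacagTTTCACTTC
H2-D1: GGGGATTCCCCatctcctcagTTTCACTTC

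Among 32851 RefSeq windows of the 250 bases before a start site, 2.98% held GAAANNGAAA, 6.31% held GAANNGAAA, 7.25% held the kappaB consensus, 17.8% held TGACG and 33.9% held CCAAT. A sixth set of letters, TTCNNNGAA, was in 7.02% of windows and in that of *Psmb8* alone among the 8 genes. The longer interferon factor letters were found before *B2m*, the shorter ones before *H2-K1* and *H2-D1*, and neither before *Tap1*, *Tapbp*, *Psmb8*, *Psmb9* or *Psmb10*. TGACG and CCAAT were also in the windows of *Tap1* and *Psmb9*, and CCAAT in that of *Tapbp*. The kappaB consensus matched before *B2m*, *H2-K1* and *H2-D1*. It matched at 111 and 110 bases before *H2-K1* and at 171 and 170 bases before *H2-D1*, so the matches of each gene overlap. *Tapbp*, *Psmb9* and *Psmb10*, which were also lower, held neither the interferon factor letters nor the kappaB consensus. The letters were chosen with the sequences in view, so the matches before these genes are not a test against the shares of all windows. These matches describe letters and not binding, and no match says only that the letters are not in that window.

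*Tap1* and *Tap2* encode the paired chains of the TAP peptide transporter, which works as a heterodimer. *Tap1* had a normalized coverage of 50.1, 47.1 and 53.3 in KSFM-Ca2+ and of 55.9, 57.3 and 58.9 in DKSFM libraries, with the lowest DKSFM library just above the highest KSFM-Ca2+ library. It was 1.14-fold higher in DKSFM cells (log2 change 0.20 ± 0.05 SE, 95% interval 0.08 to 0.31, limma adjusted p = 0.00707). This call rested on small margins. The adjusted p was 0.0107 to 0.0297 without KSFM-Ca2+ replicate 1 or 2 or without any of the DKSFM replicates, and ranged from 0.00227 to 0.144 over 17 alternative settings, in all of which *Tap1* stayed higher in DKSFM cells.

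*Tap2* had a normalized coverage of 17.3, 19.2 and 18.8 in KSFM-Ca2+ and of 7.11, 8.09 and 8.38 in DKSFM libraries. It was 2.33-fold lower in DKSFM cells (log2 change -1.22 ± 0.08 SE, limma adjusted p = 1.85e-06). The partners of the transporter thus went apart, and *Tap1* coverage was 2.73 ± 0.24 times that of *Tap2* in KSFM-Ca2+ cells and 7.33 ± 0.47 times in DKSFM cells (SD, n = 3 each, no test).

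*Tapbp* encodes tapasin, which holds the empty heavy chain at the transporter. Its normalized coverage was 172, 164 and 194 in KSFM-Ca2+ and 121, 114 and 128 in DKSFM libraries. It was 1.46-fold lower in DKSFM cells (log2 change -0.55 ± 0.07 SE, limma adjusted p = 1.06e-04), the smallest decrease of the 7.

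**Figure D2:**
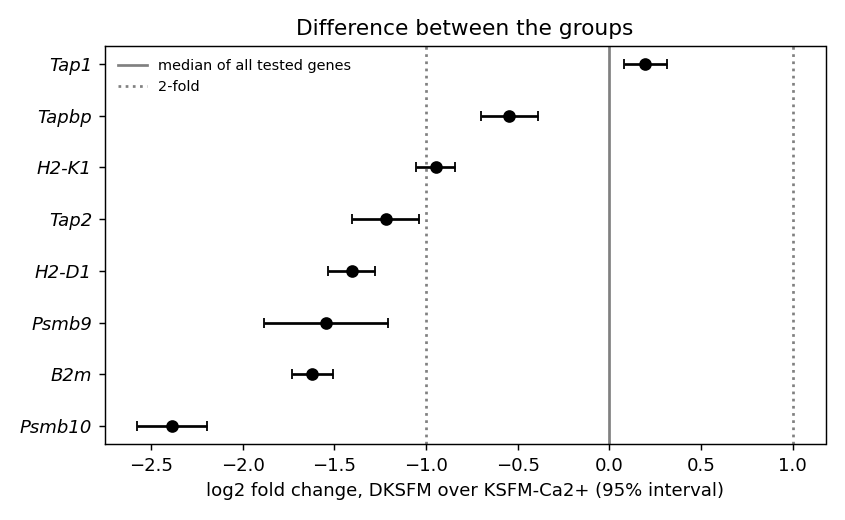
Log2 fold change, DKSFM over KSFM-Ca2+, of the 8 tested class I genes with 95% intervals from limma. The solid line marks the median of all tested genes and the dotted lines a 2-fold change. Psmb10 lies farthest to the left at -2.39, and Tap1 is the only gene right of the median at 0.20.

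*Psmb8*, *Psmb9* and *Psmb10* encode the catalytic subunits of the immunoproteasome, which replace *Psmb5*, *Psmb6* and *Psmb7* of the constitutive core and change which peptides are made. *Psmb10* had a normalized coverage of 33.1, 31.4 and 33.98 in KSFM-Ca2+ and of 6.48, 5.50 and 6.68 in DKSFM libraries. It was 5.22-fold lower in DKSFM cells, the largest change of the 8 (log2 change -2.39 ± 0.08 SE, limma adjusted p = 5.39e-08).

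*Psmb9* had a normalized coverage of 5.72, 5.14 and 6.02 in KSFM-Ca2+ and of 2.02, 1.499 and 2.12 in DKSFM libraries. It was 2.92-fold lower in DKSFM cells (log2 change -1.54 ± 0.15 SE, limma adjusted p = 1.89e-05). *Psmb8* was listed at 0.3, 0.0 and 0.0 in KSFM-Ca2+ and at 0.5, 0.3 and 0.4 in DKSFM libraries. These are a few rounding steps of 0.1 above 0, and no fold is given. *Psmb9* and *Psmb10* were thus covered in both groups while *Psmb8*, the subunit they assemble with, was near the limit of what could be read.

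Set against its constitutive counterpart, *Psmb10* coverage was 10.7%, 9.93% and 10.2% of *Psmb7* in the KSFM-Ca2+ libraries and 2.17%, 1.80% and 2.18% in the DKSFM libraries. *Psmb9* coverage was 2.24%, 2.06% and 2.33% of *Psmb6* and 1.03%, 0.834% and 1.19% in the same order. *Psmb8* coverage was 0.179%, 0 and 0 of *Psmb5* and 0.423%, 0.236% and 0.348%. The ratio of *Psmb10* to *Psmb7* was 4.96-fold lower in DKSFM cells and that of *Psmb9* to *Psmb6* was 2.11-fold lower, and the groups did not overlap for either pair. The exact two-sided permutation p was 0.1 for both, also after Benjamini-Hochberg adjustment over the 3 pairs, which is the smallest that 3 libraries against 3 can give. The ratio of *Psmb8* to *Psmb5* ran the other way, but *Psmb8* was listed at 0.3 in both KSFM-Ca2+ replicate 1 and DKSFM replicate 2, so the gap between the groups lay within a rounding step and its p is not read. The constitutive subunits moved less, with normalized coverage of 320 ± 12.6 and 303 ± 4.52 for *Psmb7*, 254 ± 4.29 and 184 ± 9.83 for *Psmb6* and 133 ± 6.49 and 125 ± 2.75 for *Psmb5* (SD, n = 3 each, KSFM-Ca2+ first). *Psmb6* was lower in DKSFM cells (limma adjusted p = 1.15e-05), while *Psmb5* and *Psmb7* did not pass the threshold (limma adjusted p = 0.0712 and 0.0675). *Psmb5* is uncertain, since 30.6% of its read-length windows also occur in another gene, mostly the annotated copy *Gm3375*.

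**Figure D3:**
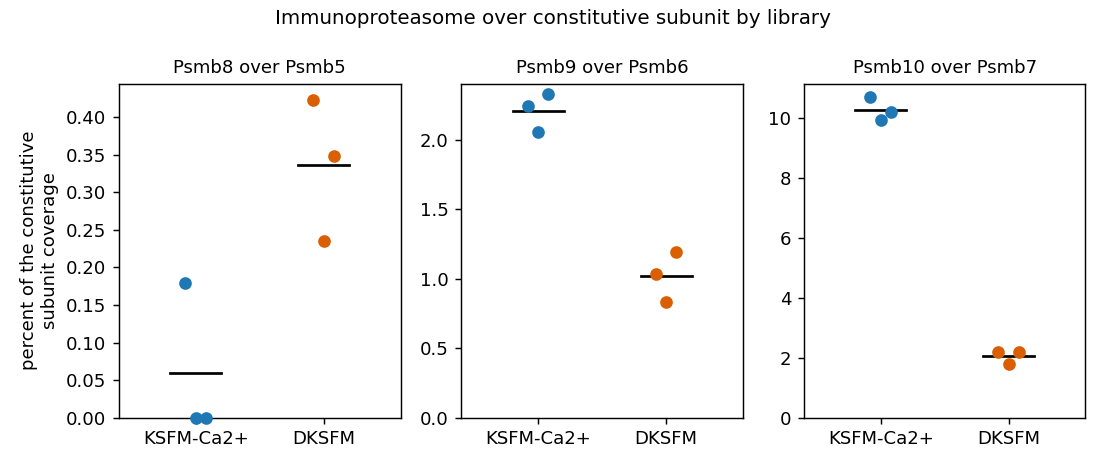
Coverage of each immunoproteasome subunit as a percent of the constitutive subunit that it replaces, by library, with bars for means of 3. Psmb10 over Psmb7 averaged 10.3% in KSFM-Ca2+ and 2.05% in DKSFM cells, Psmb9 over Psmb6 2.21% and 1.02%, and Psmb8 over Psmb5 stayed under 0.5% in all 6 libraries.

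*Nlrc5* encodes the transactivator of class I genes. It was listed at 0.1 in each KSFM-Ca2+ library and at 0.0 in each DKSFM library, a single rounding step, and was not tested. No fold can be given.

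In KSFM-Ca2+ cells the order of the levels was *B2m*, *H2-K1*, *Tapbp*, *H2-D1*, *Tap1*, *Psmb10*, *Tap2*, *Psmb9*, *Nlrc5* and *Psmb8*. *H2-K1* and *Tapbp*, and *Nlrc5* and *Psmb8*, overlapped between libraries, and the other neighbours in this order did not. In DKSFM cells the order was *Tapbp*, *H2-K1*, *B2m*, *Tap1*, *H2-D1*, *Tap2*, *Psmb10*, *Psmb9*, *Psmb8* and *Nlrc5*, with no overlap between neighbours. *B2m* coverage was above that of 93.3% of tested genes in KSFM-Ca2+ cells and of 78.7% in DKSFM cells. For *Psmb10* these shares were 56.4% and 23.6%, and for *Tap1* they were 66.5% and 69.6%.

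The genes sit on 3 chromosomes in the authors' build (mm10, read here from GENCODE M21). *Tapbp*, *H2-K1*, *Psmb9*, *Tap1*, *Psmb8*, *Tap2* and *H2-D1* lie on chromosome 17 within 1.35 Mb, *B2m* at chr2:122147686-122153083, and *Psmb10* at chr8:105935735-105938444 and *Nlrc5* at chr8:94434356-94527272. *Psmb9* and *Tap1* are read in opposite directions from RefSeq start sites that are 225 bases apart. Their coverage ratio differed between the groups, with *Tap1* at 8.93 ± 0.20 times *Psmb9* in KSFM-Ca2+ and 31.2 ± 6.02 times in DKSFM cells (SD, n = 3 each, no test). Within 10 Mb of *Tap1*, the median log2 change of 280 other tested genes was 0.16, and 601 other tested genes of chromosome 17 had a median of 0.13. Of the 280 genes, 53.9% had a lower log2 change than *Tap1* and 4.29% a lower one than *Tap2*.

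Around *B2m* the median log2 change of 176 genes was -0.17, and 7.96% of them had a lower change than *B2m*. Chromosome 8 was lower as a whole in DKSFM cells, with a median of -0.42 over 660 genes, the lowest of 20 chromosomes next to chromosome 1 at -0.42, and of -0.53 over 114 genes within 10 Mb of *Psmb10*. The *Psmb10* log2 change minus that local median was -1.86, and 2.63% of its neighbours had a lower change. The part of the chromosome in the *Psmb10* difference was not tested.

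**Figure D4:**
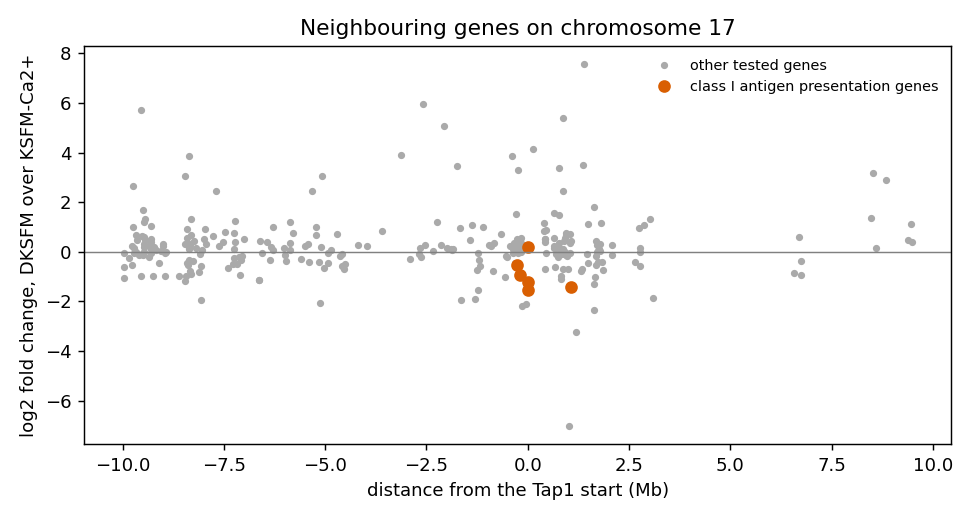
Log2 fold change, DKSFM over KSFM-Ca2+, of tested genes against distance in Mb from the Tap1 start on chromosome 17, with class I antigen presentation genes in colour. The grey points scatter around a median of 0.16, and the coloured points lie below 0 except Tap1 at 0.20.

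Among 37 other class I and class I-like chains, 18 were listed at 0 in all libraries and 11 were tested, of which 8 were lower in DKSFM cells and 2 were higher, against 37.1% and 35.5% of all tested genes. The remaining gene, *H2-K2*, named after its values were seen, did not pass (limma adjusted p = 0.0963). The median log2 change of the 11 genes was -0.74, against -0.001 over all tested genes. The 2 higher genes, *Fcgrt* and *Hfe*, reached the minimum of 0.5 only in DKSFM libraries, and *H2-Q4* only in KSFM-Ca2+ libraries. When every library had to reach the minimum, the count of higher genes was 0. The counts and the median thus include genes tested through the group where they were high. *Procr*, the class I-like receptor of protein C, had a normalized coverage of 74.8 ± 3.604 in KSFM-Ca2+ and 6.89 ± 0.28 in DKSFM cells, 10.7-fold lower (limma adjusted p = 1.30e-09). *H2-M3*, which presents formylated peptides, was 3.66-fold lower at 7.98 ± 0.54 and 2.14 ± 0.49, and the nonclassical *H2-Q4* went from 3.11 ± 0.70 to 0.241 ± 0.05. *Fcgrt*, the heavy chain of the neonatal Fc receptor that also pairs with beta-2-microglobulin, was listed at 0.0 in every KSFM-Ca2+ library and at 3.1, 5.3 and 4.5 in the DKSFM libraries.

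*Hfe*, the class I-like regulator of iron uptake, was the other gene that was higher, at 0.336 ± 0.13 and 0.932 ± 0.18, and was named after its values were seen. Its normalized coverage was 0.457, 0.198 and 0.354 in the KSFM-Ca2+ libraries, under the minimum and a few rounding steps above 0. It was tested only through the DKSFM libraries, so its call depends on the filter. Its limma adjusted p of 0.00358 became 0.0164 without DKSFM replicate 2 and 0.0138 without DKSFM replicate 3, in a range up to 0.0328 over its alternatives. *H2-T22* and *H2-T9* went from 110 ± 11.8 to 65.6 ± 2.82 and from 42.1 ± 4.52 to 25.2 ± 1.18. Both are uncertain, since close relatives share their sequence (18.4% of *H2-T22* windows), and *H2-T9* held a steady 0.383 to 0.387 of the *H2-T22* coverage in the 6 libraries. The 8 lower genes include *H2-L* and *H2-T9* and so are not 8 separate measurements. C57BL/6 mice carry no *H2-L* molecule, so its values of 127 ± 8.002 and 48.5 ± 2.74 cannot be told apart from those of *H2-D1* and are uncertain.

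**Figure D5:**
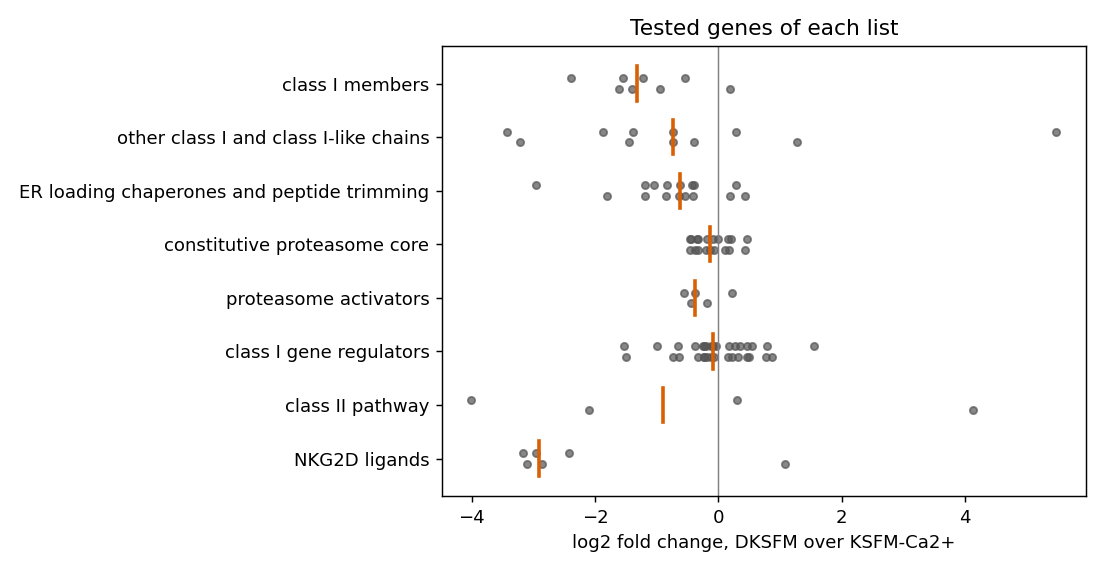
Log2 fold change, DKSFM over KSFM-Ca2+, of the tested genes of the class I genes and of each further list, with points for genes and coloured bars for list medians. The class I genes have a median of -1.31, the constitutive proteasome core stays between -0.47 and 0.46, and NKG2D ligands have a median of -2.91.

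All 16 listed genes for loading chaperones of the endoplasmic reticulum and for peptide trimming passed the test, 13 lower and 3 higher in DKSFM cells, against 37.1% lower and 35.5% higher among all tested genes, with a median log2 change of -0.62. *Hspa5*, the chaperone BiP, which early heavy chains bind, went from 1849 ± 34.3 to 527 ± 17.1, 3.51-fold lower (limma adjusted p = 1.96e-09). Calreticulin (*Calr*) went from 1048 ± 16.7 to 458 ± 24.6 and *Pdia3*, the oxidoreductase of the loading complex, from 720 ± 11.02 to 402 ± 10.01. *Canx*, the calnexin gene, was lower by 1.35-fold, at 1178 ± 8.91 and 874 ± 9.18. *Tapbpl*, the tapasin-related peptide editor, was 2.28-fold lower, at 29.5 ± 1.21 and 12.9 ± 0.44. *Uggt2*, which tags misfolded glycoproteins, went from 1.72 ± 0.17 to 0.139 ± 0.06. It was listed at 0.1, 0.1 and 0.2 in the DKSFM libraries, close to the rounding step of 0.1, so no fold is given. It reached the minimum only in KSFM-Ca2+ libraries. The 3 higher genes, named after their values were seen, were *Bcap31*, *Npepps* and *Nrd1*, with log2 changes of 0.28, 0.43 and 0.18. *Hspa5* and other chaperones of the list serve all secreted proteins, so the list is not particular to class I molecules.

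The constitutive proteasome core moved little. Of 19 tested genes, 10 were lower and 5 higher in DKSFM cells, against 37.1% and 35.5% of all tested genes, and the median log2 change was -0.13. None of the 19 reached 2-fold in either direction, which 10.5% of all tested genes did as lower and 13.2% as higher. The 5 higher genes were *Psma5*, *Psma7*, *Psmb1*, *Psmb4* and *Psmg3*, the last of which, with *Psmb4*, was named after its values were seen. The most covered genes were *Psma6* (736 ± 32.5 and 648 ± 1.199), *Psma7* (632 ± 31.4 and 703 ± 14.8), the assembly factor *Pomp* (533 ± 26.4 and 532 ± 19.96) and *Psmb1* (366 ± 8.54 and 414 ± 11.6). The largest log2 changes were -0.47 for *Psmb6*, 0.46 for *Psma5*, -0.45 for *Psma4* and -0.44 for the assembly chaperone *Psmg2*. *Psma5* shares 34.6% of its windows with annotated copies and is uncertain. *Psma7* lost its call (limma adjusted p = 0.00589) without KSFM-Ca2+ replicate 1 or 2 or any of the DKSFM replicates, at 0.0108 to 0.0255, in a range up to 0.152 over its alternatives.

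Proteasome activators open the core, and the PA28 pair *Psme1* and *Psme2* is known to respond to interferon. Of the 5 activator genes 4 were lower and 1, *Psme4*, was higher in DKSFM cells, against 37.1% lower and 35.5% higher among all tested genes, with a median log2 change of -0.38 and 0 genes at 2-fold. *Psme2* had a normalized coverage of 208 ± 3.53 and 160 ± 5.62, *Psme3* of 159 ± 2.70 and 108 ± 1.31, *Psme1* of 78.2 ± 0.81 and 69.0 ± 3.91 and *Psme4* of 38.5 ± 0.59 and 44.9 ± 1.46. *Psme2* and its copy *Psme2b* (9.25 ± 1.33 and 6.76 ± 0.31) share 44.3% and 56.97% of their windows and are uncertain. The count of lower activators was 2 without KSFM-Ca2+ replicate 2 and 2 without KSFM-Ca2+ replicate 3, where *Psme1* and *Psme2b* missed the threshold. The limma adjusted p of *Psme1* was 0.00584, and 0.0163 to 0.0226 when any KSFM-Ca2+ replicate was left out. It also missed the threshold with relative log expression scaling (0.0102), with quantile normalization (0.0170), without the trend (0.0176) and in the combined libraries only (0.0637). That of *Psme2b* was 0.00583, 0.0133 to 0.0272 when any library except KSFM-Ca2+ replicate 1 was left out, 0.0123 without the trend and 0.0108 with the replicate block.

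Of 39 genes that regulate class I transcription, 33 were tested, 14 lower and 12 higher in DKSFM cells, shares near the 37.1% lower and 35.5% higher of all tested genes, with a median log2 change of -0.08. *Irf1*, the interferon-induced activator of class I genes, went from 61.2 ± 5.18 to 21.6 ± 1.196, 2.83-fold lower (limma adjusted p = 2.86e-07). The feedback inhibitors of cytokine signalling moved in opposite directions, with *Socs1* at 4.07 ± 0.10 and 1.35 ± 0.22 and *Socs3* at 14.3 ± 1.26 and 42.0 ± 1.92. *Irf7* went from 6.07 ± 0.80 to 3.004 ± 0.53. *Stat3* went from 121 ± 2.28 to 210 ± 5.33, the CCAAT-binding subunit *Nfya* from 118 ± 1.64 to 151 ± 0.89, the Polycomb methyltransferase *Ezh2* from 143 ± 5.89 to 113 ± 4.87 and *Nfkb2* from 120 ± 4.06 to 76.2 ± 3.41. *Ifng*, *Ifnb1*, *Ifnk*, *Ifnl2* and *Ifnl3*, the interferon genes of the list, were listed at 0 in all libraries.

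Of 13 genes of the class II pathway, which presents peptides from outside the cell, 6 were above 0 in at least 1 library and 4 were tested. The other 7 were listed at 0 in all libraries, as were 8901 of all 24982 genes, and include *Ciita*, the class II transactivator, *H2-Aa* and *H2-Ab1*. *H2-Eb1*, a class II beta chain, had a normalized coverage of 0.381, 0.396 and 0.708 in KSFM-Ca2+ and of 10.3, 9.99 and 9.75 in DKSFM libraries. *Cd74*, the invariant chain, was listed at 1.6, 1.5 and 1.6 in KSFM-Ca2+ and 0.0 in every DKSFM library. *Cd74* reached the minimum of 0.5 only in KSFM-Ca2+ libraries. *H2-Eb1* reached it in the DKSFM libraries and in KSFM-Ca2+ replicate 3 only. Both were thus tested through the group where they were high. *H2-DMb1*, a peptide exchange factor, went from 8.60 ± 0.10 to 1.94 ± 0.05, and 16.97% of its windows occur in *H2-DMb2*. *Ifi30*, a lysosomal reductase, went from 112 ± 4.85 to 138 ± 1.26.

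NKG2D ligands are class I-like proteins that stressed cells show to natural killer cells without beta-2-microglobulin. Of 8 listed genes, 6 were tested, 5 lower and 1 higher in DKSFM cells, where 37.1% and 35.5% of all tested genes were called, and the median log2 change was -2.91 against -0.001. Among DKSFM libraries, *Raet1b* reached the minimum in none and *Raet1a* in replicate 3 only, so both were tested through the KSFM-Ca2+ libraries. When every library had to reach the minimum, the count of lower genes was 3. *Raet1e* went from 33.5 ± 3.15 to 3.69 ± 0.78, *Raet1c* from 10.14 ± 0.57 to 1.11 ± 0.32, *Raet1a* from 2.89 ± 0.58 to 0.351 ± 0.22 and *Raet1b* from 2.23 ± 0.36 to 0.210 ± 0.11. All 4 are uncertain. *Raet1e* shares 30.9% of its windows, mostly with *Raet1d*, which was listed at 0 in all libraries, and *Raet1a*, *Raet1b* and *Raet1c* had no transcript in GENCODE M21, so what they share could not be measured. The 5 lower genes and their median may therefore not rest on separate measurements. *Ulbp1* was 5.34-fold lower, at 7.48 ± 1.25 and 1.32 ± 0.25. *H60c*, the ligand known from keratinocytes, was 2.12-fold higher, at 42.9 ± 0.72 and 91.3 ± 2.38 (limma adjusted p = 3.79e-08).

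Among tested genes outside the 10, those with the pattern most like *B2m* over the 6 libraries on the log2 scale were *Tmem171*, *Rgs16*, *Akr1b8*, *Ctla2b* and *E2f4*, with Pearson r of 0.9999, 0.9998, 0.9998, 0.9998 and 0.9998. The libraries form 2 groups, and 1562 tested genes had an r above 0.99, so the measure follows the group difference. *Akr1b8*, an aldo-keto reductase, went from 92.1 ± 7.21 to 31.4 ± 0.37, *Ctla2b*, a cysteine protease inhibitor, from 34.8 ± 4.23 to 4.09 ± 0.24, and *E2f4*, a cell cycle repressor, was 1.91-fold lower. *Tmem171* and *Rgs16* averaged 3.25 ± 0.86 and 1.33 ± 0.28 in KSFM-Ca2+ cells and were listed at 0.0 in every DKSFM library.

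Marker lists were read beside these values, since class I levels differ between cell types and, in bulk RNA, fewer cells of a type and less RNA per cell cannot be told apart. All 10 keratinocyte markers were tested, 7 higher and 3 lower in DKSFM cells, against 35.5% and 37.1% of all tested genes, with a median log2 change of 0.25 and a summed normalized coverage of 21039, 21391 and 21020 in KSFM-Ca2+ and 49944, 46218 and 50416 in DKSFM libraries. *Krt14*, the basal keratin, was the most abundant at 11975 ± 225 and 29719 ± 1517. It carried the sum together with *Krt5* (4684 ± 26 and 11148 ± 792) and *Perp* (1516 ± 35.02 and 4667 ± 95.7). The lower markers were *Epcam*, *Itgb4* and *Cdh1*, with log2 changes of -1.501, -0.742 and -0.131. For *Cdh1* the study reports the opposite direction, an increase in DKSFM-adapted cells measured by qPCR. The limma adjusted p of *Cdh1* was 0.00343, and it missed the threshold without KSFM-Ca2+ replicate 1 (0.01298) or 3 (0.0114) and without DKSFM replicate 1 (0.0228) or 2 (0.0136). *Krt5*, *Perp*, *Epcam*, *Itgb4* and *Cdh1* were named after their values were seen. Of 18 leukocyte markers, 7 were listed at 0 throughout, among them *H2-Aa*, *Itgax*, *Cd3e* and *Tyrobp*, and the pan-leukocyte gene *Ptprc*, named after its values were seen, was listed at 0.1 in 1 library and 0.0 in the others. The sum of the leukocyte list was 2.06, 2.67 and 3.54 in KSFM-Ca2+ and 11.6, 11.1 and 10.7 in DKSFM libraries. *H2-Eb1* was the most abundant gene of the list over all libraries. The 2 tested markers of the list went opposite ways, *H2-Eb1* higher and *Cd74* lower in DKSFM cells. Each was tested through the group where it was high, so these directions depend on the filter. In KSFM-Ca2+ cells *Cd74* led the list, at a mean of 1.53 against 0.495 for *H2-Eb1*. *Cd74* was listed at 0.0 in every DKSFM library.

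Of 10 fibroblast markers, 7 were at 0, among them *Col1a1*, *Col1a2* and *Col3a1*, and the list summed to 25.6, 26.1 and 26.3 in KSFM-Ca2+ and 14.0, 15.2 and 14.0 in DKSFM libraries, led by *Twist1*. Of 7 endothelial markers, 4 were at 0, among them *Cdh5* and *Vwf*, and the sum was 2.82, 3.16 and 3.30 against 8.28, 8.29 and 7.42, led by *Pecam1*. Of 7 melanocyte markers, *Dct* and *Tyr* were at 0, and the sum was 4.12, 3.96 and 4.60 against 17.3, 18.8 and 18.3, led by *Mitf*. Other markers of these lists were above 0, with *Twist1* at 17.6 ± 0.62 in KSFM-Ca2+ and 12.1 ± 0.83 in DKSFM cells, *Twist2* at 7.34 ± 0.27 and 0.035 ± 0.06, *Pdgfra* at 1.11 ± 0.21 and 2.22 ± 0.12, *Pecam1* at 2.78 ± 0.26 and 7.58 ± 0.60 and *Mitf* at 3.51 ± 0.42 and 17.7 ± 0.65 (SD, n = 3 each). *Twist2* and *Pdgfra* were named after their values were seen. The part of these marker lists in the class I differences was not tested.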

How the data were processed

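Stranded poly(A) libraries were read from one end, aligned with STAR to mm10 and compared with DESeq2 by the authors, as the submitters' processing notes and the study's methods give it. The deposited signal is mean coverage per base of each gene, to 1 decimal and not scaled for depth. How coverage was computed from the alignments, and what the word combined marks for KSFM-Ca2+ replicate 3 and all DKSFM libraries, is not stated. Because coverage is not a count, no count model was fitted and depth in reads was not used. Total coverage was 1057750 to 1601676 per library, and the rounding step of 0.1 limits low values.

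Coverage was scaled by a trimmed mean of M values without weights (trims of 30% and 5%, factors 0.991 to 1.01). Genes with at least 0.5 in 3 libraries were fitted with limma 3.58.1 in R 4.3.3, on log2(normalized coverage + 0.1) with an intensity trend, and the fold changes are on that scale, which understates changes of low genes. The procedure was tested on simulated data, and the outcome of that test is not reported here. Proteasome pairs were compared by exact permutation (scipy 1.17.1). The thresholds were those of the study.

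The members and lists were chosen with earlier results of these data known. The text names all 10 genes, in each pathway list the 4 most covered and the 4 most changed tested genes, the constitutive partners, Irf1 and Ciita, the 5 genes most like B2m, and of each cell type the most abundant marker and defining markers at 0. A gene that the rule also names is not reported here. Other genes were named after their values were seen. Promoter letters were chosen with the sequences in view. Alternatives were other scalings, filters, pseudocounts and thresholds, no trend, a replicate block, each library left out, and the combined libraries only.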

Additional observations from a re-analysis of the deposited data

How the results depend on the processing

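Across 17 alternative settings of the fit, the 7 lower class I genes stayed lower and past the threshold, with log2 changes of B2m from -1.74 to -1.56, H2-K1 from -1.04 to -0.89 and Psmb10 from -2.47 to -2.23. The count of higher class I genes was 0 instead of 1, through Tap1, without the trend and in the combined libraries only, and 0 to 1 without single libraries. Other counts moved by over 1.5 times as follows. In every library at the minimum, genes at least 2-fold higher were 1032 instead of 1636, other class I chains higher 0, class II genes lower 1 and higher 1, and NKG2D ligands lower 3, since fewer genes were tested. In the combined libraries only, where the lone KSFM-Ca2+ library was assumed to vary like the others, other class I chains higher were 1, constitutive core genes higher 2, activators higher 0, regulators lower 8, class II genes lower 1 and NKG2D ligands lower 3, with fewer libraries. Other class I chains higher were 1 after quantile normalization, and 1 to 3 without single libraries. Activators lower were 2 without the trend and 2 to 3 without single libraries. The replicate numbers did not pair the libraries (correlations of same-numbered deviations -0.0051, 0.024 and -0.0061). With a replicate block, 4461 genes were lower and 4265 higher, at least 2-fold 1304 and 1641, class I genes lower 7 and higher 1, other class I chains higher 1, core genes lower 9 and higher 4, activators lower 3, regulators lower 11 and keratinocyte markers higher 5 and lower 3. Of the genes named in the report, the block ended the calls of Psma7 (limma adjusted p = 0.0128), Psme2b (0.0108) and Hfe (0.0106), and in the lists also those of Psma2 (0.0139), Ifnar1 (0.0129), Tyk2 (0.0108), Relb (0.0154), Trp63 (0.0185) and Itga6 (0.0114), named after their values were seen. Calls also ended for Psma6 (0.0110) and Cdh1 (0.0271) with quantile normalization, for Cdh1 without the trend (0.01396), and in the combined libraries only for Psmb1 (0.0323), Psmb4 (0.0358), Psme4 (0.0115), Pdgfra (0.0169) and Cdh1 (0.0257). Pomp, not called, changed sign to 0.011 with relative log expression scaling and 0.038 with quantile normalization, and ranged from -0.029 to 0.038 without single libraries. With pseudocount 1 the log2 ratio of Psmb9 to Psmb6 was -0.74 and of Psmb10 to Psmb7 -2.16. Of 1324 values of single genes under alternatives, 46 lost their call in the same direction. The cause of these changes was otherwise not tested.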
